A study of Homo sapiens with 6 samples.

Results

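The genes described here are 9 enzymes and binding proteins that write, read or erase DNA methylation: DNMT1, DNMT3A, UHRF1, UHRF2, TET1, TET2, TET3, MBD2 and ZBTB38. They were taken by symbol, in a choice made with earlier results of these data known, from 60483 gene identifiers counted by RNA-seq. All 9 were among the 17925 genes with enough counts to be tested. The samples were HAP1 (C631), a near-haploid human line derived from a chronic myelogenous leukemia, and a HELLS KO derivative of it, both under normal growth without treatment. The HELLS KO cells are a single purchased line with a 1-base insertion in HELLS, so a difference between the genotypes and a difference between 2 cell lines cannot be told apart. There were 3 libraries per genotype, described as biological replicates, and replicate 3 of both genotypes carries a batch label that the other libraries do not.

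In mammals a methyl group is placed on cytosine mainly at CpG dinucleotides. DNMT3A writes new methylation, while DNMT1 copies existing marks onto the daughter strand after replication, guided by UHRF1, which recognises hemimethylated DNA. TET enzymes oxidise methylcytosine and so start its removal, and proteins such as MBD2 and ZBTB38 bind methylated DNA and recruit repressors. HELLS is a chromatin remodeler of the SNF2 family that, with CDCA7, gives the methylation machinery access to DNA in nucleosomes. The comparison asks whether the transcripts of this machinery differ when HELLS is lost.

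None of the 9 genes passed the test between HELLS KO and HAP1. A gene was called when it changed by at least 1 on the log2 scale in either direction and edgeR's quasi-likelihood test gave a Benjamini-Hochberg adjusted p under 0.05. By this rule 0 of 9 were called, against 2.22% of all tested genes (398 genes). At the adjusted p alone the count was also 0, against 2.26% of all genes. None of the 9 reached an unadjusted p under 0.05, which 6.59% of all genes did, and DESeq2 called none. With 9 genes, a count of 0 lies near this background and is not a result about the group. The libraries of the genotypes overlapped for every one of the 9 genes, while they did not overlap for 10.1% of all tested genes. With the replicate number as a block, 630 genes were called (3.51%) and still 0 of the 9, and the adjusted p alone was passed by 4.38% of genes and by 0 of the 9.

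**Figure D1:**
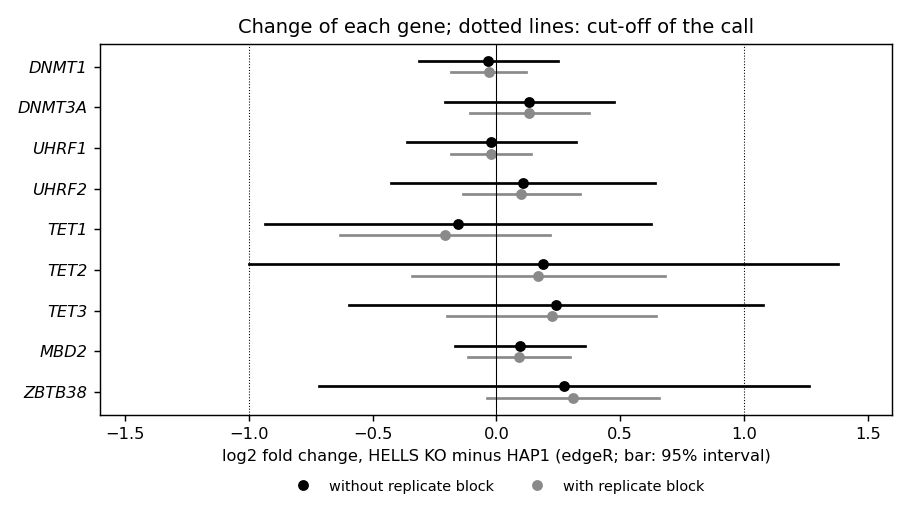
Log2 fold change of each gene, HELLS KO minus HAP1 (horizontal axis), with 95% intervals from edgeR, without (black) and with (grey) the replicate block, 3 libraries per genotype. All 18 intervals include 0, and those of TET1, TET2, TET3 and ZBTB38 are the widest.

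The targeted gene itself did not pass the test. HELLS was at 102, 108 and 153 CPM, counts scaled to the size of each library, in HAP1 replicates 1 to 3 and at 96.9, 96.3 and 115 in HELLS KO. HELLS KO replicates 1 and 2 lay below every HAP1 value, replicate 3 did not, and the log2 fold change was -0.24 ± 0.18 (SE, n = 3 per genotype, edgeR adjusted p = 1.00). HELLS was lower in HELLS KO in 3 of 3 same-numbered pairs, and with the replicate block the log2 fold change was -0.22 (edgeR adjusted p = 0.37). Counts over a whole gene do not show a 1-base insertion, so this neither checks nor contradicts the labels. The paper reports by Western blot that HELLS protein is completely lost in the HAP1 knockout.

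Maintenance methylation was the best-expressed arm. DNMT1 (chr19:10133342-10231286, GRCh38) was at 371, 364 and 310 CPM in HAP1 and at 332, 376 and 314 in HELLS KO. Replicate 3 was the lowest library in both genotypes, and the groups overlapped. The log2 fold change was -0.03 with a 95% interval from -0.31 to 0.25, which is 0.804-fold to 1.19-fold. UHRF1 (chr19:4903080-4962154), the partner that brings DNMT1 to hemimethylated DNA, was at 217, 220 and 176 CPM in HAP1 and at 201, 229 and 174 in HELLS KO. The log2 fold change was -0.02, with an interval from -0.36 to 0.32. For both genes a change of 1.5-fold in either direction lies outside the interval.

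UHRF2 (chr9:6413151-6507054), the relative of UHRF1 that also binds modified cytosine, did not follow UHRF1 across the libraries. It was at 99.3, 93.9 and 141 CPM in HAP1 and at 90.1, 121 and 149 in HELLS KO. Replicate 3 was the highest library in both genotypes, where for UHRF1 it was the lowest. The log2 fold change of UHRF2 was 0.11, with an interval from -0.43 to 0.64.

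DNMT3A (chr2:25227855-25342590), a de novo enzyme, was measured at a lower level. It was at 61.7, 59.8 and 51.1 CPM in HAP1 and at 57.7, 71.6 and 60.0 in HELLS KO. The highest value was HELLS KO replicate 2 and the lowest HAP1 replicate 3, with the other values mixed. Its log2 fold change was 0.13, with an interval from -0.21 to 0.47. DNMT3B, the other catalytically active de novo enzyme, was at a mean of 19.2 FPKM against 4.94 for DNMT3A. Its log2 fold change was -0.10 ± 0.13 (SE, edgeR adjusted p = 1.00). DNMT3L, a cofactor without catalytic activity, had too few counts to be tested, with HAP1 libraries at 4, 7 and 7 and HELLS KO libraries at 0, 2 and 2.

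The 3 TET genes, with ZBTB38, varied most among libraries of one genotype. TET1 (chr10:68560337-68694487) was at 127, 107 and 182 CPM in HAP1 and at 70.2, 131 and 172 in HELLS KO. The lowest of the 6 values was HELLS KO replicate 1 and the highest HAP1 replicate 3. Its log2 fold change was -0.16, with an interval from -0.93 to 0.62, or 0.523-fold to 1.54-fold. TET2 (chr4:105145875-105279816) was at 53.6, 41.1 and 116 CPM in HAP1 and at 37.1, 77.2 and 126 in HELLS KO. It had the largest ratio of highest to lowest library of the 9 genes, 3.40. Its log2 fold change of 0.19 had an interval from -0.999 to 1.38, which is 0.500-fold to 2.60-fold, and with the replicate block the interval was 0.790-fold to 1.602-fold. TET3 (chr2:73984910-74108176) was at 90.1, 75.6 and 152 CPM in HAP1 and at 72.3, 135 and 168 in HELLS KO. The fold change, on the log2 scale, was 0.24, with an interval from -0.60 to 1.08.

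Both readers are repressors that bind methylated CpG. MBD2 (chr18:54151606-54224669), which recruits the NuRD deacetylase complex, was the steadiest of the 9 genes. It was at 80.5, 82.4 and 86.1 CPM in HAP1 and at 91.4, 92.8 and 81.8 in HELLS KO, and its highest library was 1.15 times its lowest. The log2 fold change was 0.10, with an interval from -0.17 to 0.36. ZBTB38 (chr3:141324213-141449792), a zinc finger protein, was the least expressed per length. It was at 22.3, 19.9 and 49.6 CPM in HAP1 and at 23.6, 33.7 and 53.9 in HELLS KO. It was the only one of the 9 genes higher in HELLS KO in 3 of 3 same-numbered pairs, and its log2 fold change was 0.27 (interval from -0.72 to 1.26). With the replicate block it was 0.31 (interval from -0.04 to 0.66, edgeR adjusted p = 0.52).

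Levels of different genes can be compared only per length, for which the deposited FPKM values (fragments scaled to gene length and library size) were used. For the median gene that length was that of all annotated exons together. The length of the transcripts expressed was not measured. In order of mean over the 6 libraries, UHRF1 was at 38.8 FPKM, DNMT1 at 34.6, MBD2 at 14.5, TET1 at 13.9, UHRF2 at 11.5, TET3 at 9.26, DNMT3A at 4.94, TET2 at 4.49 and ZBTB38 at 2.43. UHRF1 and DNMT1 exceeded 94.9% and 92.9% of tested genes, and ZBTB38 exceeded 29.4%. Among neighbours in this order, only DNMT1 and MBD2 had ranges that did not overlap (30.9 to 37.5 against 13.7 to 15.6 FPKM). UHRF1 was nevertheless above DNMT1 in 6 of 6 libraries, as were UHRF2 above TET3, TET3 above DNMT3A and TET2 above ZBTB38. In CPM, which is not scaled to length, DNMT1 was above UHRF1 (means of 348 and 204 in HAP1). The order of these 2 genes by FPKM thus rests on the lengths used, 9797 and 5145 bases.

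**Figure D2:**
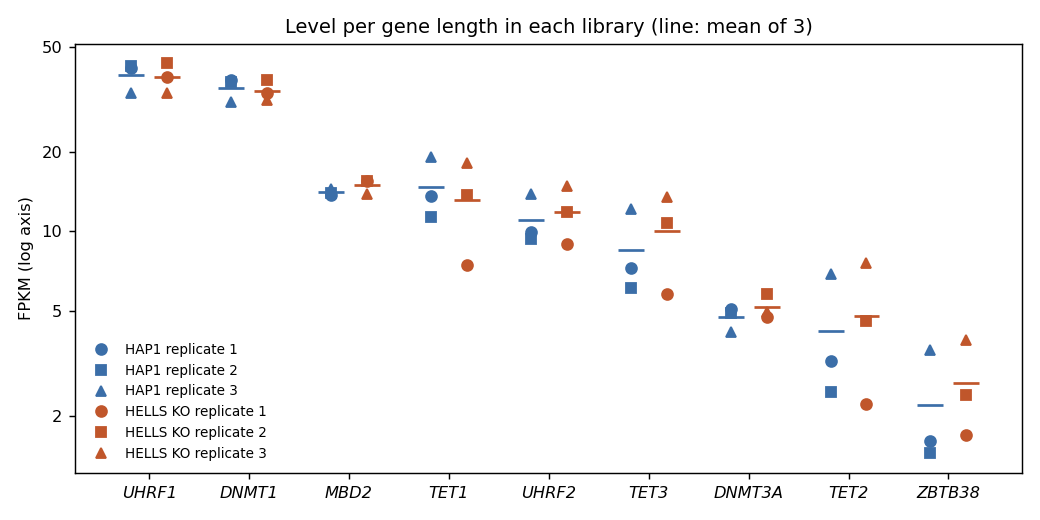
FPKM (log axis) of the 9 genes in each of 6 libraries, ordered by mean, with a line at the mean of each genotype. UHRF1 and DNMT1 lie at 30.9 FPKM or more in every library, and the replicate 3 libraries (triangles) are the highest for the 3 TET genes, UHRF2 and ZBTB38 in both genotypes but the lowest for DNMT1 and UHRF1.

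Much of the spread of these genes ran between libraries rather than between genotypes. The CPM of replicate 3 was 2.45 times the mean of replicates 1 and 2 for TET2 in HAP1 and 2.21 times in HELLS KO. Those ratios exceeded 98.8% and 98.98% of the 15801 genes with at least 10 counts in every library. ZBTB38 had ratios of 2.35 and 1.88, TET3 of 1.84 and 1.62, TET1 of 1.56 and 1.70, and UHRF2 of 1.46 and 1.41. DNMT1 (0.842 and 0.886), UHRF1 (0.805 and 0.807) and DNMT3A (0.841 and 0.928) were below 1 in both genotypes. The median ratio over all genes moved with gene length, from 0.820 below 2000 bases to 1.24 at 8000 bases or more in HAP1 and from 0.813 to 1.23 in HELLS KO. It also moved with counts per base, from 1.13 for genes under 0.1 counts per base to 0.651 for genes of 1 or more in HAP1. The replicate 3 libraries held the most counts, 24126357 and 24400187 against 13641237 to 14859360 in the others. They are also the libraries with the batch label. The part of batch, length, depth and removal of duplicated reads in these ratios was not tested.

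**Figure D3:**
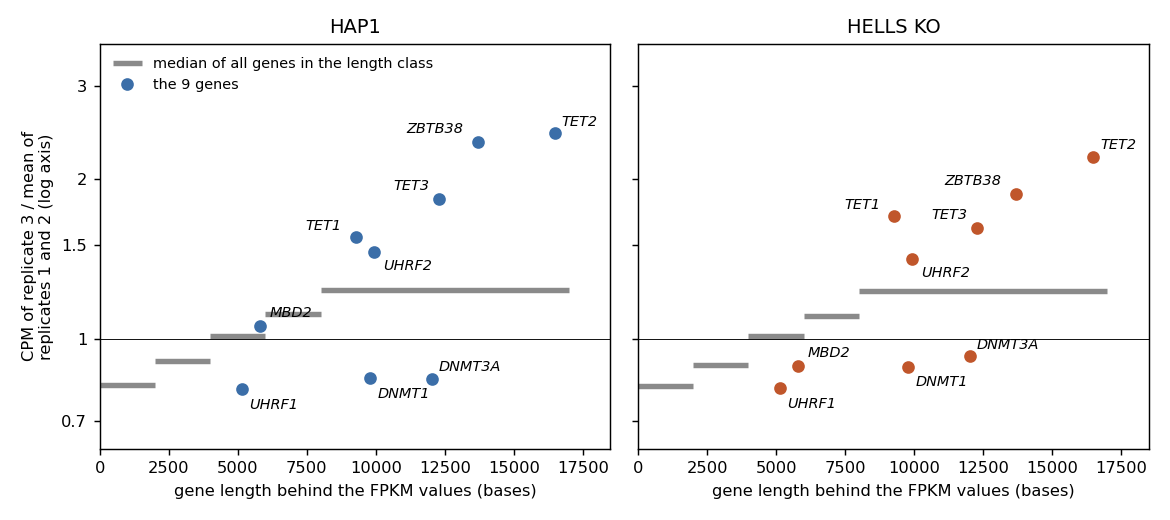
CPM of replicate 3 divided by the mean of replicates 1 and 2 (log axis) against the gene length behind the FPKM values in bases, for HAP1 (left) and HELLS KO (right); points are the 9 genes and grey bars the median of all genes in each length class. TET1, TET2, TET3, ZBTB38 and UHRF2 lie above the median of their length class in both panels, and DNMT1 and DNMT3A, of similar length, below it.

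The HELLS KO replicates 1 and 2 also differed for the TET genes. The CPM of replicate 2 was 1.87 times that of replicate 1 for TET1, 2.08 times for TET2 and 1.87 times for TET3. Each of these ratios exceeded at least 97.9% of genes, and the median gene had a ratio of 1.00. In HAP1 the same ratio of replicate 2 to 1 was 0.839, 0.767 and 0.839. Within replicates 1 and 2 alone, which share the absence of a batch label, the log2 fold changes were -0.23 for TET1, 0.25 for TET2 and 0.31 for TET3, and none of the 9 genes passed the test. The batch-labelled libraries hold 1 sample per genotype and give no test.

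Ratios within a library do not depend on how libraries are scaled. Each was computed as a log2 ratio of FPKM and compared between genotypes by an exact two-sided permutation test, whose smallest possible p with 3 libraries against 3 is 0.1. Of 6 ratios, 2 had genotypes that did not overlap, and none can pass a threshold of 0.05. DNMT1 to DNMT3A, the maintenance enzyme against 1 of the de novo enzymes, was at 2.88, 2.90 and 2.89 in HAP1. It was at 2.82, 2.69 and 2.68 in HELLS KO, lower in every HELLS KO library. The difference was -0.16 on the log2 scale (exact permutation p = 0.1, Benjamini-Hochberg over 6 ratios 0.3). The 6 include TET1 to TET3 and TET1 to TET2, which were chosen after the values were seen. The adjusted values of the ratios are therefore a description and not a test. The ratio of any other gene to DNMT1 did not overlap for 7.59% of genes, and to DNMT3A for 10% of genes. DNMT3B, of higher level than DNMT3A, was not part of the 6 ratios, so the balance of maintenance to all de novo enzymes was not tested.

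TET1 to TET3, chosen after the values were seen and so a description, was at 0.90, 0.90 and 0.66 in HAP1 and at 0.36, 0.36 and 0.43 in HELLS KO. The genotype means were 0.82 ± 0.14 and 0.38 ± 0.04 (SD, n = 3), a difference of -0.44 (exact permutation p = 0.1, adjusted 0.3). The ratio of other genes to TET1 did not overlap for 9.29% of genes, and to TET3 for 4.96%. Put as shares of the summed FPKM of the 3 TET genes, TET1 made up 56.4%, 57.0% and 50.2% in HAP1 and 48.1%, 47.4% and 46.4% in HELLS KO. TET3 made up 30.2%, 30.6% and 31.8% in HAP1 and 37.5%, 36.9% and 34.4% in HELLS KO. The summed TET level itself ran from 19.95 to 38.1 FPKM in HAP1 and from 15.5 to 39.4 in HELLS KO, so the genotypes overlapped in the total while they did not in these shares. A long non-coding gene, ENSG00000235499, shares 390 exonic bases with TET3 on the same strand (3.01% of the TET3 exons) and had 13, 17 and 66 counts in the HAP1 libraries, against 2, 41 and 94 in those of HELLS KO, so reads in those bases are uncertain.

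The other ratios overlapped. UHRF1 to UHRF2 differed by -0.12 (exact permutation p = 0.6), DNMT1 to UHRF1 by -0.01 (exact p = 0.8), TET2 to TET3 by -0.06 (exact p = 0.7) and TET1 to TET2, also chosen after the values were seen, by -0.38 (exact p = 0.3). TET1 to TET2 was lower in HELLS KO in 3 of 3 same-numbered pairs (exact sign-flip p = 0.25, the smallest possible). Per annotated length, DNMT1 to UHRF1 was the most even of the 6 ratios. DNMT1 lay between 0.862 and 0.949 times the FPKM of UHRF1 in every library.

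For the TET genes, the stretch upstream of each start is shown, and a link between these bases and the ratios was not tested. These are the 100 bases before the most upstream RefSeq start of each gene (GRCh38.p14, plus strand), with CpG dinucleotides, the bases that can be methylated, in capitals. The windows are chr10:68560237-68560336 for TET1, chr4:105145775-105145874 for TET2 and chr2:73984810-73984909 for TET3, and no annotated exon lies in them.
TET1: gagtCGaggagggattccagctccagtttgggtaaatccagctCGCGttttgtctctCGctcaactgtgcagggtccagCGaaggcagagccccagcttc
TET2: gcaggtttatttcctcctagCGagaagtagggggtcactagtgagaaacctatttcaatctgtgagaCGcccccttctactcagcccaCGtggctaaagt
TET3: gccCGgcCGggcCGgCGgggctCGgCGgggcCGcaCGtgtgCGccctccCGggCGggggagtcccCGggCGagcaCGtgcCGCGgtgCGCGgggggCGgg
The TET1 stretch holds 5 CpG, that of TET2 3 and that of TET3 19. Over the full 250 bases upstream, the counts were 9, 10 and 37, against a median of 11 over 35116 RefSeq promoters. The other RefSeq starts had 4 and 11 CpG for TET1, 34 for TET2 and 27 for TET3. No methylation was measured in these libraries, so the letters describe the sites and not their state.

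The 9 genes have 29 RefSeq starts in all, from 1 each for DNMT1, UHRF2 and MBD2 to 10 for ZBTB38. The CpG count of the 250 bases upstream ran from 0 at a ZBTB38 start to 41 at a UHRF1 start. The E2F-type letters TTTGGCGC, TTTCGCGC, TTTCCCGC and TTTGCCGC, searched on both strands, were found upstream of 2 UHRF1 starts and of no other of the 9 genes, against 2.79% of all promoters. A match is a description of letters and not of binding.

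The wider pathway was described from lists of partner genes, HELLS itself among them, and of cell cycle genes. The 9 lists held 100 distinct genes, of which 99 were tested. The S phase (24 genes) and G2/M (20 genes) lists are of cell cycle genes and not of partners. An adjusted p under 0.05 was passed by 0 of the 99, with or without the replicate block, against 2.26% and 4.38% of all tested genes. Of the 99, 97 had a log2 fold change within 0.25 of 0. The median over all tested genes was 0.01. In the list of other methyltransferases and genes of the ICF (immunodeficiency, centromeric instability, facial anomalies) syndrome, 5 of 6 genes were tested and none passed, with CDCA7, the partner of HELLS, at 43.98 FPKM and a log2 fold change of 0.00. Among 8 partners of maintenance methylation, none passed. DMAP1, which binds DNMT1, was the only one of the 99 tested list genes without overlap of the genotypes, against 10.1% of all tested genes. It was at 105 ± 4.24 CPM in the HAP1 libraries against 113 ± 0.964 in those of HELLS KO (SD, n = 3, log2 fold change 0.10, edgeR adjusted p = 1.00). PCNA, the replication clamp, was the best expressed of them at 76.1 FPKM, with a log2 fold change of -0.01.

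The remaining lists were described in the same way. Among 6 regulators of de novo methylation, BEND3 had the largest value (0.16) and NSD2, a histone H3 lysine 36 methyltransferase, the highest level (23.2 FPKM). Among 8 other methyl-CpG readers the median was 0.08, with ZBTB4 at -0.15 and MBD1 the highest in level at 24.8 FPKM. Of 14 NuRD subunits, the remodeler CHD5 had the largest value of any list gene, 0.54 ± 0.39 (SE), from 12 to 50 counts per library, while its relative CHD4 was at 47.9 FPKM and 0.04. Among 9 partners of active demethylation, D2HGDH, which clears the TET inhibitor 2-hydroxyglutarate, was at -0.30 ± 0.26 (SE), and OGT, which binds TET proteins, at -0.01. All 7 genes of the S-adenosylmethionine cycle, which supplies the methyl donor, lay between -0.09 (AHCYL1) and 0.01, with MAT2A the best expressed at 53.0 FPKM.

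Genes of the cell cycle were included because DNMT1 and UHRF1 are expressed with replication. Of 24 S phase genes and 20 G2/M genes, none passed the test, and the medians were 0.00 and 0.00. The largest values were 0.23 for CCNE2 and 0.20 for UBE2C, and the best expressed genes were MCM3 at 67.1 FPKM and CDC20 at 75.2 FPKM, with log2 fold changes of -0.02 and -0.04. In bulk RNA, fewer cells in a phase and less RNA per cell cannot be told apart.

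**Figure D4:**
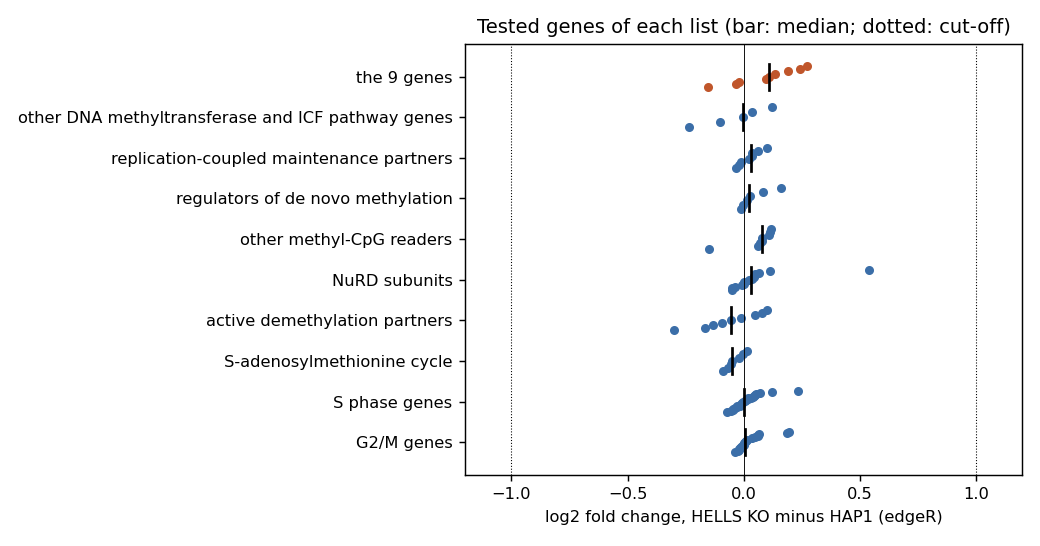
Log2 fold change, HELLS KO minus HAP1, of each tested gene of the 9 genes (orange) and of the 9 lists of partner and cell cycle genes (blue), with a bar at each median and dotted lines at the cut-off of 1. No gene reaches the cut-off, and only CHD5 (0.54) and D2HGDH (-0.30) lie beyond 0.25 on either side outside the 9 genes.

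The labelled origin was compared with its markers. Of 12 haematopoietic markers, only CD33 had enough counts to be tested, and SPI1 and HBG1 were at 0 in every library, so the defining markers of blood cells were largely absent from both genotypes. Of 8 fibroblast and mesenchymal markers, 4 were tested and none passed, and VIM, an intermediate filament of mesenchymal cells, had a log2 fold change of 0.03.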

How the data were processed

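The authors prepared directional libraries from total RNA, sequenced them as pairs, aligned them with STAR 2.7.3a to GRCh38, kept non-duplicated reads of sufficient mapping quality and made gene counts with featureCounts 2.0.6. The annotation and strand setting are not given in the sources used here. The deposited counts were not normalized. The deposited FPKM values were made by the authors, and the gene length behind them was equal across libraries within 0.1%. Of the counts from 2 to 10, 73.8% were even, against 50.2% of those of at least 500; whether mates of a pair were counted separately was not tested.

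Gene identifiers (56321 of 60483) were matched to GENCODE 44. Counts were tested with edgeR 4.0.16 in R 4.3.3 (filterByExpr, TMM normalization, glmQLFit, glmQLFTest, Benjamini-Hochberg over all tested genes). CPM are TMM-scaled. Standard errors were derived from each gene's F statistic. Ratios were tested by an exact two-sided permutation test over libraries. The code was tested on simulated data. Alternatives used DESeq2 1.42.0, limma 3.58.1, other scalings and filters, and left out each library. Same-numbered libraries deviated together from their genotype means (correlations of 0.42, 0.20 and 0.78 for replicates 1 to 3), so the fit was repeated with a replicate block. HAP1 replicate 2 correlated better with HELLS KO replicate 1 (0.59) than with its own number, as did HELLS KO replicate 2 with HAP1 replicate 1 (0.33). The sample titles name no pairs beyond these numbers. For replicates 1 and 2, the block and the same-numbered pairs therefore rest on the numbering alone.

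All 9 genes are named, with HELLS and, per list, any called gene or else the gene of largest change and the gene of highest level. The genes and lists were chosen with earlier results of these data known. The TET1 ratios and the promoters printed were chosen after their values were seen. Total counts were 13641237 to 24126357 per HAP1 library and 14115255 to 24400187 per HELLS KO library. A count of 0 allows up to 3 counts, or 0.123 to 0.218 CPM, for counting error only.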

Additional observations from a re-analysis of the deposited data

How the results depend on the processing

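Over 17 other settings, 153 values of the 9 genes were computed, and 0 passed the adjusted p (lowest 0.38, for ZBTB38 with 1 library left out). The sign turned in 14 of them, each with 1 library left out, and the cause was not tested. The ranges were -0.112 to 0.0175 for DNMT1, 0.0328 to 0.188 for DNMT3A, -0.122 to 0.0696 for UHRF1 and -0.0876 to 0.31 for UHRF2. They were -0.47 to 0.13 for TET1, -0.31 to 0.76 for TET2, 0.0610 to 0.158 for MBD2, -0.0387 to 0.60 for TET3 and -0.11 to 0.82 for ZBTB38. Ratio differences that turned sign ranged from -0.41 to 0.15 (UHRF1 to UHRF2), -0.0544 to 0.0147 (DNMT1 to UHRF1) and -0.21 to 0.0846 (TET2 to TET3), while TET1 to TET3 stayed between -0.52 and -0.40, DNMT1 to DNMT3A between -0.21 and -0.14 and TET1 to TET2 between -0.60 and -0.24. In pairs, the smallest exact sign-flip p is 0.25, which the last 3 of these ratios reached. The number of all genes called, 398, was 670 with DESeq2, 660 with DESeq2 and the replicate block, 630 with the replicate block, 656 with a batch term, 615 without a filter, 198 with limma on log2(FPKM + 1) and 77 where every library had to hold 10 counts or more. It ranged from 152 to 449 with 1 library left out, at 152 without HELLS KO replicate 2, 222 without HELLS KO replicate 1 and 242 without HAP1 replicate 1. The replicate block changed no call among the 9 genes or the pathway lists; of the markers, ESRP1 passed only with it. The lowest library held 274 counts of ZBTB38, 540 of TET2 and 822 of DNMT3A, whose coefficients of variation within HAP1 were 53.9%, 57.1% and 9.80%.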

Other observations

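Of 6 epithelial markers 5 were tested and 2 were called, both lower in HELLS KO. EPCAM, a cell adhesion protein of epithelia, had 104, 107 and 178 counts in the HAP1 libraries, against 2, 6 and 5 in those of HELLS KO (log2 fold change -4.88 ± 0.39 SE, edgeR adjusted p = 0.0015). KRT8, a keratin of simple epithelia, was at 70.0 ± 14.3 CPM in the HAP1 libraries against 11.4 ± 1.81 in those of HELLS KO (SD, n = 3, log2 fold change -2.61, edgeR adjusted p = 0.0015). ESRP1, a splicing regulator of epithelial cells, had a log2 fold change of -0.65 (edgeR adjusted p = 0.37, and 0.035 with the replicate block), and KRT18, the usual partner of KRT8, of -0.19. KRT19, at 4 to 14 counts per library, had a log2 fold change of 0.59 (edgeR adjusted p = 1.00). The summed FPKM of the 6 markers was 30.7 to 41.0 in HAP1 and 17.3 to 21.4 in HELLS KO. The part of this difference in the values of the 9 genes was not tested.

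COL1A1, a fibrillar collagen, had 1103, 1048 and 854 counts in HAP1 replicates 1 to 3, against 600, 713 and 868 in those of HELLS KO. These counts are not scaled, and the replicate 3 libraries are the largest. Scaled, COL1A1 was at 63.1 ± 23.9 CPM in HAP1 against 42.3 ± 7.19 in HELLS KO (SD, n = 3). The libraries overlapped, with a log2 fold change of -0.58 (edgeR adjusted p = 1.00).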
